A study of Mus musculus with 8 samples.

Results

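The genes examined here were 10 genes of noncanonical Wnt and planar polarity signalling, namely Wnt5a, Wnt11, Ror1, Ror2, Vangl1, Vangl2, Celsr1, Prickle1, Scrib and Daam1. They were taken by symbol from a table of 20701 gene symbols, and where a symbol had several transcripts, that of the highest mean count was used. RNA came from the right ventricle with the outflow tract (OFT/RV), dissected from single C57BL/6 mouse embryos at E10.5, 4 wild-type embryos (CTRL) and 4 embryos with hypomorphic alleles of Isl1 (Isl1_hypo, Isl1-f;neo/f;neo). The hypomorphic alleles are present in every cell of the embryo and lower Isl1 without removing it, so no cell type was targeted. Isl1 encodes a LIM-homeodomain transcription factor of the progenitor cells that add to the outflow end of the heart tube. All 10 genes had enough reads to be tested, among 13769 tested genes.

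Noncanonical Wnt ligands signal without stabilising β-catenin, mainly through Ror and Frizzled receptors, and alter the cytoskeleton and cell movement. The planar polarity proteins gather at opposite sides of a cell and align it with its neighbours within a sheet. In the embryo heart both are known for the entry of progenitor cells into the lengthening outflow tract and for its later rotation and septation.

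Isl1 itself was measured first. It stood at 29.6, 61.5, 46.2 and 51.3 CPM (counts scaled to the TMM-adjusted depth of each library) in the 4 CTRL libraries in replicate order, against 12.7, 6.86, 7.71 and 11.4 CPM in the 4 of Isl1_hypo. It fell to 20.5% of the CTRL mean, which is −2.29 on the log2 scale with a standard error (SE) of 0.256, and passed the quasi-likelihood test of edgeR after Benjamini-Hochberg adjustment (adjusted p = 0.0077). Total counts ranged from 29748458 to 46678973 in CTRL and from 18422245 to 33050298 in Isl1_hypo, and the 10 genes held between 239 and 7356 counts in any library. Isl1_hypo replicate 3 stood apart from the other libraries in its trend with base composition. Its log2 level changed by −0.29 for each 10 points of GC, against −0.04 to 0.11 in the other 7 libraries. With transcript length, Isl1_hypo replicate 3 (−0.11 for each doubling) and CTRL replicate 1 (0.12) both stood apart from the other 6 libraries (−0.03 to 0.03).

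None of the 10 genes passed an adjusted p under 0.05 with edgeR, against 0.269% of all genes tested, and none did with DESeq2 or limma-voom, which called 2.32% and 0.973% of all genes. Of the 10, 9 had estimates below 0 and 1 above, with a median log2 fold change of −0.23, against a median of 0.01 and 49.1% of estimates below 0 over all genes, and Wnt11 and Daam1 turned positive under some of the settings compared. The median of the 10 was −0.12 with the trend of each library on GC removed, −0.13 with that on length removed, and −0.14 both with limma-voom and without Isl1_hypo replicate 3. Wnt5a and Vangl2 had an unadjusted p under 0.05, both lower in Isl1_hypo. These are 2 of 10, where 11.9% of all genes had such a p (6.17% lower and 5.69% higher). In none of the 10 did the 4 CTRL and 4 Isl1_hypo libraries separate without overlap, against 8.5% of all genes (4.44% lower and 4.06% higher). In whole tissue, fewer cells of a type and less RNA per cell cannot be told apart, and this applies to every value that follows.

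**Figure D1:**
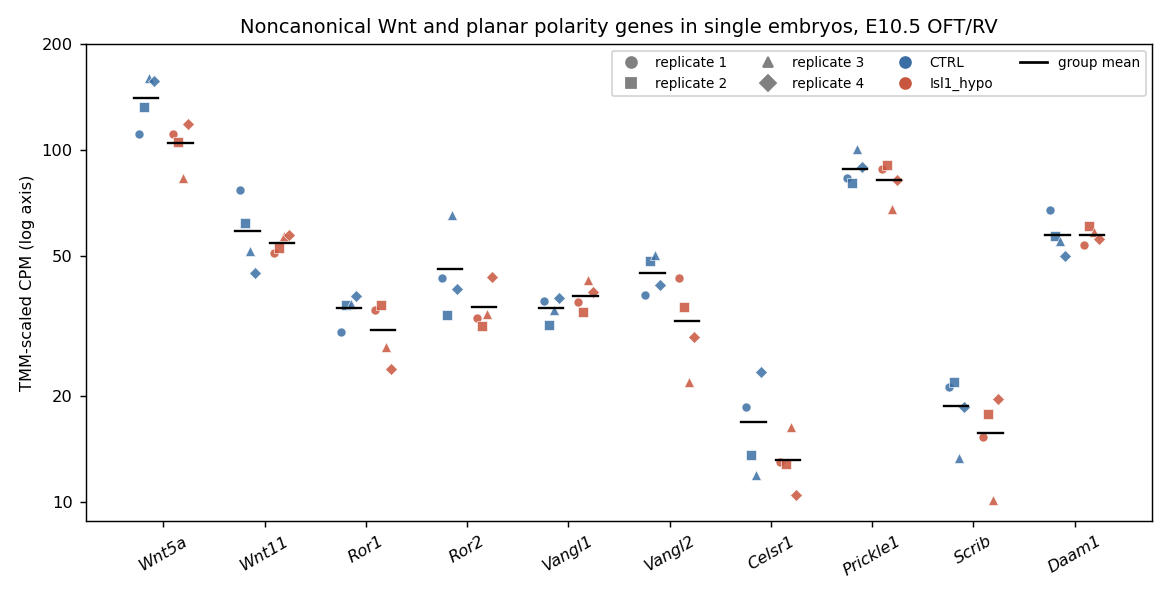
Depth-scaled counts (TMM-scaled CPM, log axis) of the 10 genes in each embryo, with CTRL in blue and Isl1_hypo in red, replicates 1 to 4 by symbol and the group mean as a bar. The groups overlap for every gene. For Wnt5a 3 of 4 CTRL libraries lie above all Isl1_hypo libraries, and for Vangl2 3 of 4 Isl1_hypo libraries lie below all CTRL libraries.

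The ligands were considered first. Wnt5a, a secreted ligand of Ror2 and Frizzled receptors (mm9, chromosome 14, 29317936 to 29340633, plus strand), stood at 111, 132, 161 and 157 CPM in the CTRL libraries, against 111, 106, 83.4 and 118 CPM in those of Isl1_hypo, each in replicate order as in all later lists. CTRL replicates 2 to 4 lay above all Isl1_hypo libraries, while CTRL replicate 1 lay within their range. The mean was 140 ± 23.2 CPM in CTRL and 105 ± 15.1 CPM in Isl1_hypo (SD, n = 4), or 74.6% of CTRL. On the log2 scale the difference was −0.42 (SE 0.145, 95% interval −0.74 to −0.11), with an unadjusted p of 0.0133 and an adjusted p of 0.298 (edgeR). The difference therefore exceeded the replicate spread when Wnt5a was taken alone, and did not pass correction over all genes. Its unadjusted p stayed under 0.05 in 20 of 20 alternative settings, the highest being 0.0474 without CTRL replicate 3. Without Isl1_hypo replicate 3 the log2 fold change was −0.33.

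Wnt11, the other ligand (chromosome 7, 105983622 to 106003705, plus strand), is expressed in outflow myocardium. It was at 76.9, 62.0, 51.6 and 44.8 CPM in CTRL and at 51.1, 52.7, 57.1 and 57.5 CPM in Isl1_hypo. The CTRL embryos spread over a wider range than the Isl1_hypo embryos, which all lay inside it. The fitted log2 fold change was −0.11 (SE 0.159, 95% interval −0.46 to 0.24, adjusted p 0.825, edgeR). Without CTRL replicate 1, the highest library, it was 0.044. The counting ignored strand, and antisense gene models overlap the spans of Wnt5a (Gm2670) and Wnt11 (Gm8398). Whether they share exons was not examined, and reads of any shared exon cannot be separated from those of the ligands.

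Wnt11 was counted for several RefSeq transcripts that begin at different places, and the sequences before 2 of these starts are shown because they differ in the TAAT core that many homeodomain proteins, LIM-homeodomain proteins among them, bind. Sequences are from RefSeq on GRCm38.p6, a later build than the mm9 coordinates of the counts, and are written 5′ to 3′ on the strand of the gene, with capitals for TAAT or its reverse complement ATTA, overlapping matches included.
Wnt11, first start, chr7:98834862-98835083, plus strand: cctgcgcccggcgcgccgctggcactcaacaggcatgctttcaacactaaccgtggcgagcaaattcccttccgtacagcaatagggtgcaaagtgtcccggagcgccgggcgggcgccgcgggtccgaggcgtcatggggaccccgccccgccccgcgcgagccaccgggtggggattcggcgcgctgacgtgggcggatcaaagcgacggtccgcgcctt
Wnt11, later start inside the gene, chr7:98838595-98838844, plus strand: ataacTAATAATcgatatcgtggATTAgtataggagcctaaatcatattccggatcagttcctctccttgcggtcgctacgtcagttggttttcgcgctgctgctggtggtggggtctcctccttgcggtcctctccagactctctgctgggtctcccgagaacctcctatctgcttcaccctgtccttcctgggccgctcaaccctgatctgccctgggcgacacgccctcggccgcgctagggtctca
The window of the first start held no match and that of the later start held 3, at 245, 242 and 227 bases before the start. Of the first window, 222 of 250 bases are shown. Such a window of 250 bases held at least 1 match in 54.9% of the 32851 windows of all genes. Windows were at hand for 6 of the 10 genes, not for Wnt5a, Vangl1, Celsr1 and Scrib, and 4 of their 9 windows, belonging to Wnt11, Prickle1 and Daam1, held a match. A match is a description of the letters and no site of binding was measured here.

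Ror1 and Ror2 encode receptor tyrosine kinase-like proteins that bind Wnt5a. Ror2 (chromosome 13, 53204681 to 53381493, minus strand) stood at 43.4, 34.0, 65.5 and 40.4 CPM in CTRL and at 33.4, 31.7, 34.2 and 43.6 CPM in Isl1_hypo. CTRL replicate 3 was far above the other CTRL libraries, and Isl1_hypo replicate 4 reached the level of CTRL replicate 1. Ror2 had a log2 fold change of −0.36 (SE 0.197, 95% interval −0.79 to 0.07), with an unadjusted p of 0.0946 and an adjusted p of 0.4997 (edgeR). It was −0.14 without CTRL replicate 3, but −0.48 without CTRL replicate 2 and −0.47 without Isl1_hypo replicate 4, with unadjusted p of 0.0325 and 0.0499 (edgeR). The window before the start of Ror2, shown for comparison with Wnt11, held no match to TAAT or ATTA. It was rich in G and C, at 73.2% against a median of 52.4% over all windows. This was not particular to Ror2, as the windows at hand ranged from 52.8% (Daam1) to 74.0% (Prickle1), with 70.8% before the first Wnt11 start.
Ror2, chr13:53286125-53286374, minus strand: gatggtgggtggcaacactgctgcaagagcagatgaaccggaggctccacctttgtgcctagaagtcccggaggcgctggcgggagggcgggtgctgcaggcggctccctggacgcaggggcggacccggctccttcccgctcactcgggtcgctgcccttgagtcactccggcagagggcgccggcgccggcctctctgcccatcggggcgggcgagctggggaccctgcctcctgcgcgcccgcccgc
Ror1 (chromosome 4, 99768396 to 100117370, plus strand) was at 30.5, 36.4, 36.5 and 38.6 CPM in CTRL and at 35.2, 36.4, 27.7 and 23.9 CPM in Isl1_hypo. Isl1_hypo replicates 3 and 4 lay below all CTRL libraries, and replicates 1 and 2 lay among them. For Ror1 the log2 fold change was −0.21 (SE 0.157, 95% interval −0.55 to 0.14, adjusted p 0.630, edgeR), and it was −0.10 without Isl1_hypo replicate 4 and −0.11 with the length trend removed. A shorter Ror1 transcript of 2149 bases, counted separately from the one used here, was at 6.33, 8.34, 10.9 and 12.4 CPM in CTRL and at 9.18, 9.71, 2.78 and 5.74 CPM in Isl1_hypo. For this transcript too Isl1_hypo replicates 3 and 4 lay below all CTRL libraries and replicates 1 and 2 inside their range. The models Gm12701, on the same strand, and Gm12706, on the opposite strand, overlap the span of Ror1. Whether they share exons with it was not examined, and reads of any shared exon could not be set apart.

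The core planar polarity genes were considered next. Vangl2, a membrane protein of the core complex (chromosome 1, 173931091 to 173958575, minus strand), stood at 38.6, 48.4, 50.2 and 41.3 CPM in CTRL, against 43.3, 35.7, 21.9 and 29.5 CPM in Isl1_hypo. Isl1_hypo replicates 2, 3 and 4 lay below every CTRL library, and replicate 1 lay inside the CTRL range. The mean was 44.6 ± 5.55 CPM in CTRL and 32.6 ± 9.11 CPM in Isl1_hypo (SD, n = 4), or 73.1% of CTRL. The log2 fold change was −0.46 (SE 0.194, 95% interval −0.88 to −0.03), the lowest of the 10, with an unadjusted p of 0.0377 and an adjusted p of 0.385 (edgeR). The estimate ranged from −0.31 without Isl1_hypo replicate 3, where the unadjusted p was 0.0748, to −0.62 without Isl1_hypo replicate 1, where it was 0.0066. Over 20 alternative settings the unadjusted p stayed under 0.05 in 14, and the sign of the estimate was negative in all 20.

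Vangl1, the paralogue of Vangl2 in the same complex (chromosome 3, 101960624 to 102008616, minus strand), was at 37.2, 31.9, 35.2 and 37.9 CPM in CTRL and at 37.1, 34.7, 42.8 and 39.5 CPM in Isl1_hypo. Isl1_hypo replicates 3 and 4, the libraries with the lowest Vangl2, had the highest Vangl1 of all 8. Vangl1 had a log2 fold change of 0.12 (SE 0.121, 95% interval −0.15 to 0.38, adjusted p 0.731, edgeR), the only estimate above 0 among the 10. It was 0.062 without Isl1_hypo replicate 3, 0.067 without CTRL replicate 2 and 0.21 with the length trend removed. The model Gm16160 lies on the opposite strand of Vangl1 and overlaps its span.

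Celsr1, an atypical cadherin that links planar polarity complexes of adjoining cells (chromosome 15, 85729188 to 85864207, minus strand), was at 18.7, 13.6, 11.97 and 23.4 CPM in CTRL and at 12.98, 12.9, 16.4 and 10.48 CPM in Isl1_hypo. The highest values were those of CTRL replicates 1 and 4, and the other CTRL libraries lay inside the Isl1_hypo range. The log2 fold change was −0.36 (SE 0.228, 95% interval −0.86 to 0.14, adjusted p 0.555, edgeR), and −0.16 without CTRL replicate 4. Without CTRL replicate 3 it was −0.50, with an unadjusted p of 0.0491 (edgeR), and without Isl1_hypo replicate 3 it was −0.48. Prickle1, a cytoplasmic partner of the Vangl proteins (chromosome 15, 93329545 to 93426322, minus strand), was at 83.1, 80.6, 101 and 89.5 CPM in CTRL and at 88.2, 90.4, 67.8 and 82.1 CPM in Isl1_hypo. Except for Isl1_hypo replicate 3, which was lowest, the Isl1_hypo libraries lay inside the CTRL range. Prickle1 had a log2 fold change of −0.11 (SE 0.121, 95% interval −0.37 to 0.16, adjusted p 0.752, edgeR), and −0.027 without Isl1_hypo replicate 3.

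Scrib encodes a cell polarity scaffold that binds the Vangl proteins (chromosome 15, 75877588 to 75900214, minus strand). It was at 21.2, 21.9, 13.4 and 18.6 CPM in CTRL and at 15.3, 17.8, 10.1 and 19.6 CPM in Isl1_hypo. Replicate 3 was the lowest of its group in both groups, and the ranges overlapped over most of their length. For Scrib the log2 fold change was −0.26 (SE 0.224, 95% interval −0.75 to 0.23, adjusted p 0.673, edgeR), with −0.10 without Isl1_hypo replicate 3 and −0.39 without CTRL replicate 3. Daam1, a formin that links Dishevelled to actin assembly (chromosome 12, 72932065 to 73093354, plus strand), was at 67.8, 57.1, 55.1 and 49.97 CPM in CTRL and at 53.8, 60.7, 58.4 and 55.8 CPM in Isl1_hypo. All Isl1_hypo libraries lay inside the CTRL range, and the group means were 57.5 ± 7.48 and 57.2 ± 2.99 CPM (SD, n = 4). Daam1 had a log2 fold change of −0.0068, with a 95% interval of −0.27 to 0.26.

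Levels per transcript length (RPKM) were then used to order the 10 genes within the tissue. In CTRL the order was Wnt5a at 19.8 ± 3.05, Prickle1 at 13.3 ± 1.23, Wnt11 at 12.996 ± 3.26, Ror2 at 7.08 ± 2.05, Daam1 at 5.89 ± 0.840, Vangl1 at 5.19 ± 0.421, Vangl2 at 4.81 ± 0.545, Ror1 at 3.75 ± 0.331, Scrib at 2.06 ± 0.443 and Celsr1 at 0.943 ± 0.293 RPKM (SD, n = 4). Wnt5a lay above Prickle1, Vangl2 above Ror1, Ror1 above Scrib and Scrib above Celsr1 without overlap of the 4 CTRL libraries, and the other neighbours in the order overlapped. The CTRL mean of Wnt5a was above that of 79.4% of tested genes, and that of Celsr1 above 21.0%. In Isl1_hypo the first 3 and the last 4 genes kept their places, while Ror2, at 5.43 ± 0.828 RPKM, came after Daam1 at 5.74 ± 0.274 and Vangl1 at 5.52 ± 0.421. The ligands and Prickle1 were thus the most abundant, and the adhesion protein gene Celsr1 the least, in both groups.

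**Figure D2:**
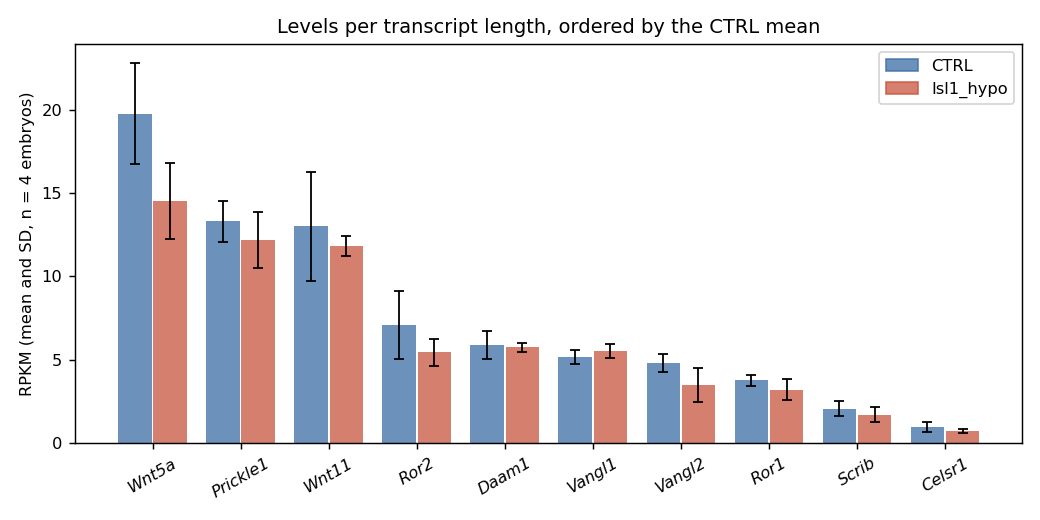
Level per transcript length (RPKM) of the 10 genes in CTRL (blue) and Isl1_hypo (red), as the mean with SD over 4 embryos, ordered by the CTRL mean. The order begins with Wnt5a at 19.8 RPKM in CTRL and ends with Celsr1 at 0.943.

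The balance within the ligand, receptor and Vangl pairs was compared within each library as a log2 ratio of RPKM, which does not depend on library scaling. An exact 2-sided permutation test over 70 assignments of the libraries was used, whose smallest possible p is 0.0286, with Benjamini-Hochberg adjustment over the 3 ratios. A ratio that alone of the 3 reached this smallest p could not have an adjusted p under 0.05. The log2 ratio of Vangl2 to Vangl1 was −0.38, 0.17, 0.07 and −0.32 in the CTRL libraries, against −0.21, −0.40, −1.40 and −0.86 in those of Isl1_hypo. Of the Isl1_hypo embryos, 3 lay below all CTRL embryos and replicate 1 lay among them. The difference of −0.60 between the means did not pass the exact permutation test (p = 0.114, adjusted p = 0.343). Without Isl1_hypo replicate 3 it was −0.37. The log2 ratio of Wnt11 to Wnt5a was −0.62 ± 0.579 in CTRL and −0.28 ± 0.260 in Isl1_hypo (SD, n = 4, exact permutation test p = 0.286, adjusted p = 0.429), and the difference of 0.34 ranged from 0.16 without CTRL replicate 4 to 0.59 without CTRL replicate 1, and was 0.21 without Isl1_hypo replicate 3. The log2 ratio of Ror2 to Ror1 was 0.88 ± 0.428 and 0.77 ± 0.479 (exact permutation test p = 0.771, adjusted p = 0.771), so that Ror2 was above Ror1 per length in all 8 libraries.

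**Figure D3:**
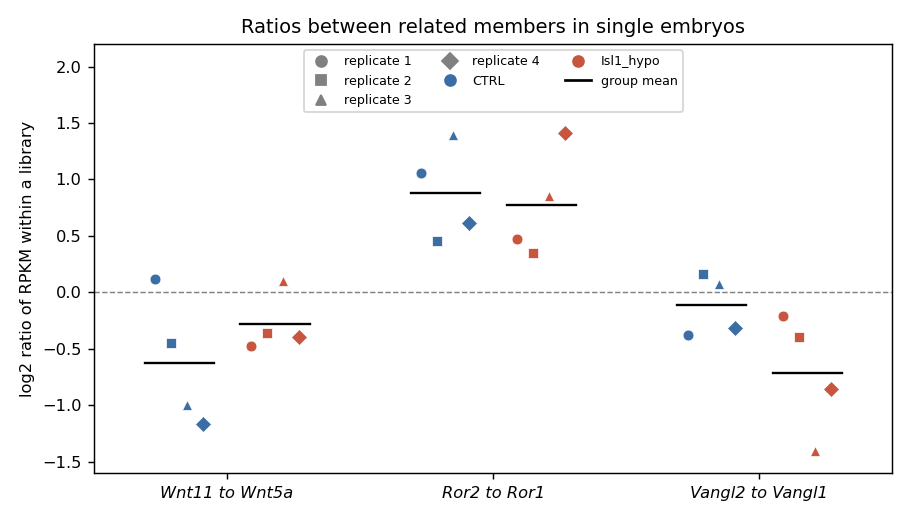
Log2 ratio of RPKM between paired genes in each embryo (CTRL blue, Isl1_hypo red, replicates by symbol, group mean as a bar, dashed line at equal levels). For Vangl2 to Vangl1, Isl1_hypo replicates 3 and 4 lie lowest at −1.40 and −0.86, and no ratio separates the groups.

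To place the 10 genes in their pathway, 38 further genes of noncanonical Wnt and planar polarity signalling were read from the same fit, of which 37 were tested and Mapk10 had too few reads. None had an adjusted p under 0.05 with edgeR, and 1, Dchs1, had one with DESeq2 (2.32% of all genes) and with limma-voom (0.973%). Of the 37, 17 estimates were below 0 and 20 above, with a median log2 fold change of 0.03. An unadjusted p under 0.05 was found for 4 of the 37, all lower in Isl1_hypo, where 11.9% of all genes had such a p and 6.17% were lower, so that their number was near that of the background. They belonged to the Fat and Dachsous cadherins (Dchs1, Fat4), the receptors (Fzd6) and the core planar polarity genes (Prickle2). The groups did not overlap for Dchs1 and Prickle3, both lower, that is for 2 of 37, against 4.44% of all genes lower without overlap.

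Dchs1 and Fat4 encode giant cadherins that bind each other across cell borders and carry a polarity cue beside the core complex. Dchs1 stood at 60.3, 69.2, 57.2 and 52.8 CPM in CTRL and at 38.6, 37.8, 20.9 and 42.4 CPM in Isl1_hypo, and every Isl1_hypo library lay below every CTRL library. Its log2 fold change was −0.78 (SE 0.198, 95% interval −1.21 to −0.34), with an unadjusted p of 0.00218 and an adjusted p of 0.170 (edgeR). DESeq2 and limma-voom gave adjusted p of 0.0120 and 0.0428 for Dchs1, and no other gene of either list passed with any of the 3 tools. Fat4 was at 28.3 to 38.8 CPM in CTRL and at 14.5 to 29.0 CPM in Isl1_hypo, which gives −0.63 on the log2 scale (SE 0.212, edgeR unadjusted p 0.0119, adjusted p 0.292). The ranges of Fat4 met only at Isl1_hypo replicate 1, which was above CTRL replicate 3. The models Gm15645 and C230034O21Rik overlap the spans of Dchs1 and Fat4 on the opposite strand. Reads of any exon they share could not be set apart. Fjx1, a kinase gene of the same branch, had a log2 fold change of 0.20 with an adjusted p of 0.837 (edgeR).

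Among the Frizzled receptors, Fzd6 ranged from 8.32 to 16.3 CPM in CTRL and from 5.31 to 9.86 CPM in Isl1_hypo, which gives −0.66 on the log2 scale (SE 0.264) at an adjusted p of 0.351 (edgeR). Prickle2, a paralogue of Prickle1, ranged from 32.1 to 42.3 CPM in CTRL and from 26.2 to 32.3 CPM in Isl1_hypo, which gives −0.31 on the log2 scale (SE 0.130) at an adjusted p of 0.373 (edgeR). With the length trend removed, Prickle2 was at −0.18 and Fat4 at −0.39, with unadjusted p of 0.199 and 0.0698 (edgeR). Over 20 alternative settings the unadjusted p stayed under 0.05 in 20 for Dchs1, 19 for Fat4, 17 for Fzd6 and 10 for Prickle2. Without Isl1_hypo replicate 3, Fzd6 was at −0.51 and Prickle2 at −0.26, with unadjusted p of 0.0669 and 0.0710 (edgeR), and Rock2, a kinase gene downstream of Dishevelled, was at −0.36 with an unadjusted p of 0.0401. Among genes with higher estimates, Gpc4, a glypican co-receptor gene at 0.37 (unadjusted p 0.0532), came under 0.05 in 5 of the 20 settings, and Fzd3 in 2. Wnt5b, at 0.51, did so in 1, with 1.02 and an unadjusted p of 0.0034 without CTRL replicate 4, and Ankrd6 and Dlg1 did so in 1 each. Of the remaining genes with lower estimates, Rock2 and Smurf1 did so in 2 settings each, and Dact1 and Fzd7 in 1 each. Only the highest Isl1_hypo library of Prickle2, replicate 2, overlapped the CTRL range. Downstream of Dishevelled, where the small GTPase genes Rhoa, Rac1 and Cdc42 and the kinase genes Rock1, Rock2, Mapk8 and Mapk9 belong, 3 of 11 estimates were below 0 and 8 above, with a median of 0.07 and no gene under an unadjusted p of 0.05. The 3 Dishevelled genes Dvl1, Dvl2 and Dvl3 had log2 fold changes of 0.03, 0.03 and 0.08.

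**Figure D4:**
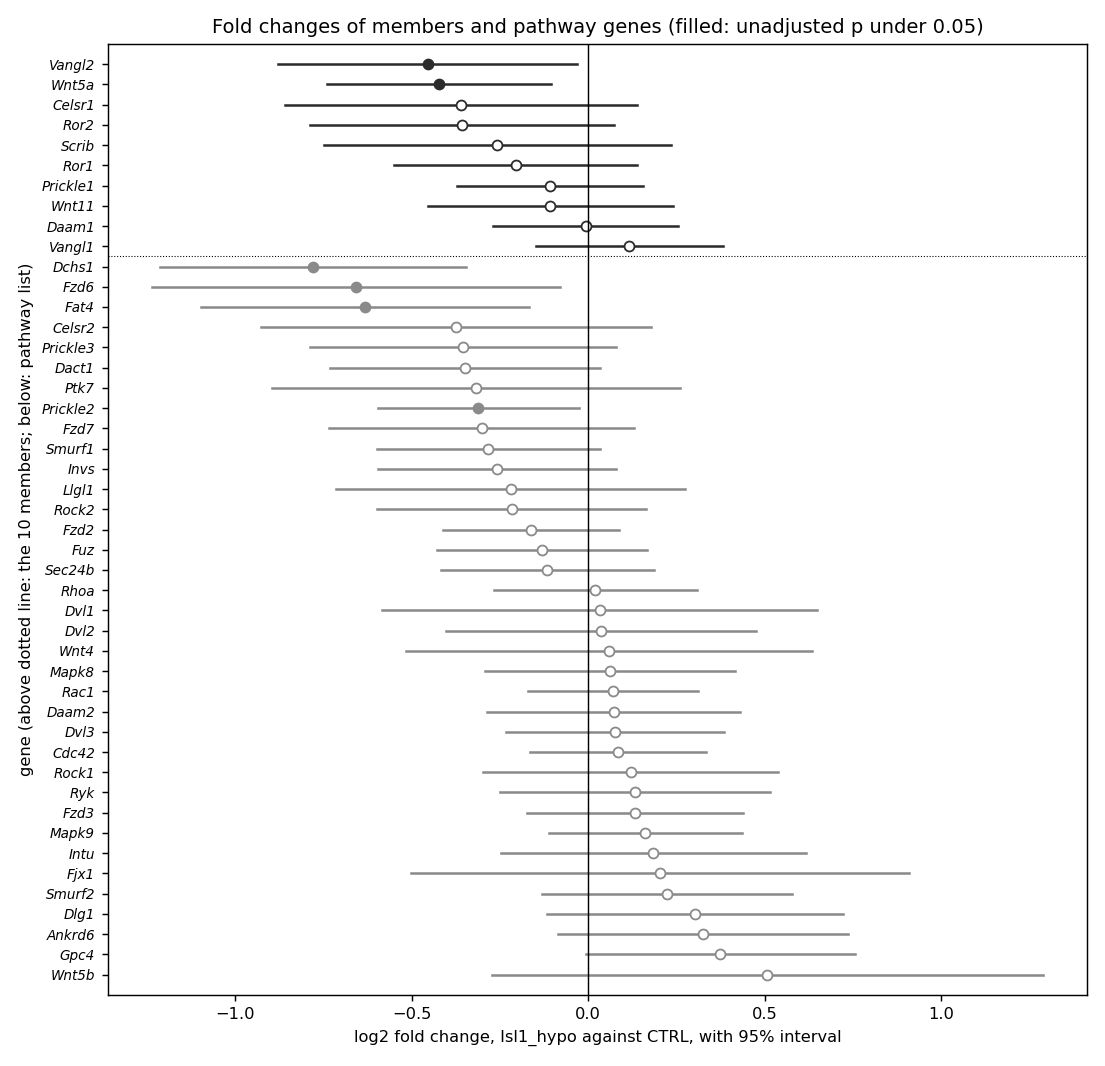
Log2 fold change of Isl1_hypo against CTRL with its 95% interval for the 10 genes (above the dotted line) and 36 pathway genes (below), filled where the unadjusted p is under 0.05. Celsr3 is left out because its interval runs from −3.79 to 1.38, Dchs1 has the lowest estimate shown at −0.78, and most intervals cross 0.

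The genes whose pattern over the 8 libraries lay nearest to Wnt5a were Ccdc85b, Prrx2 and Trabd, by a mean absolute difference of centred log2 CPM of 0.0634, 0.0700 and 0.0739. Prrx2, a homeobox gene of embryonic mesenchyme, was at 17.6 ± 3.69 CPM in CTRL and at 13.7 ± 1.89 CPM in Isl1_hypo (SD, n = 4). The nearest to Vangl2 were Chst14, Ctu1 and Tbc1d25, at 0.0724, 0.0802 and 0.0822. The log2 fold changes of these 6 genes were between −0.38 and −0.30, and none had an adjusted p under 0.05 (edgeR, lowest 0.391).

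Markers of the cells that the dissection could hold were summed in each library. The sums of the groups did not overlap for heart muscle, outflow tract and right ventricle, endothelium and erythroid cells, and overlapped for the other lists. Among all marker genes, only Bmp4 and Sln had an adjusted p under 0.05 (edgeR). The sum of 8 cushion mesenchyme markers (Postn, Sox9, Twist1, Prrx1, Pdgfra, Col1a1, Col3a1, Vcan) was 2731 to 4109 CPM in CTRL and 1681 to 3701 CPM in Isl1_hypo, lowest in replicate 3, with 7 of 8 estimates below 0 and a median log2 fold change of −0.39. The 6 endothelial markers summed to 644 to 751 and 492 to 631 CPM, with 5 of 6 below 0, and the 8 heart muscle markers to 20570 to 24369 and 18054 to 20547 CPM, with 6 of 8 below 0. The 5 outflow tract and right ventricle markers were present in all libraries, at 799 to 987 CPM in CTRL and 498 to 687 CPM in Isl1_hypo without overlap, with 4 of 5 below 0 and a median log2 fold change of −0.44. Among them Bmp4, a secreted growth factor gene, fell by 0.94 on the log2 scale (adjusted p 0.0172, edgeR). The 7 erythroid genes were all above 0 in their estimates, at 1972 to 11571 and 11573 to 24472 CPM, and the 6 macrophage genes were all below 0, at 8.70 to 20.2 and 2.28 to 15.4 CPM. Epithelial markers summed to 1.57 to 3.72 CPM in CTRL and to 82.1 CPM in Isl1_hypo replicate 1, against 2.28 to 3.22 CPM in the other Isl1_hypo libraries. Replicate 1 was also the Isl1_hypo library with the highest Vangl2, but not with the highest Vangl1, Celsr1 or Scrib. Neural crest markers stood at 2.14 to 3.57 and 1.07 to 5.96 CPM, neuronal ones at 53.5 to 78.5 and 33.4 to 55.2 CPM, and atrial ones at 116 to 143 and 120 to 165 CPM, most of it Angpt1. Of the other atrial markers, Sln fell from 5.85 ± 1.20 to 1.20 ± 0.270 CPM (SD, n = 4, adjusted p 0.0172, edgeR), and Nr2f2 stood at 13.1 ± 3.58 and 25.7 ± 8.48 CPM without overlap (adjusted p 0.173). No marker was at 0 in every library. The part of these cell types in the values of Wnt5a, Vangl2 or the other 8 genes was not tested.

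Isl1_hypo replicate 3 held the lowest value of the 8 libraries for 4 of the 10 genes, Wnt5a, Vangl2, Prickle1 and Scrib, and the median deviation of the 10 genes from their own means was −0.23 on the log2 scale there, against −0.10 to 0.11 in the other libraries. The 10 genes had a median GC content of 53.0%, against 50.5% for all tested genes, and a median length of 4966 bases, against 2924. When the trend of each library with GC was removed, the log2 fold change was −0.44 for Wnt5a and −0.40 for Vangl2, while those of Ror2, Celsr1 and Scrib were −0.18, −0.15 and −0.09. With the length trend removed, Wnt5a was at −0.35, Vangl2 at −0.37, Ror2 at −0.28, Scrib at −0.17, Celsr1 at −0.15 and Prickle1 at −0.040. The estimates of Wnt5a and Vangl2 were within 0.1 of their uncorrected values after either correction, and those of Ror2 and Scrib were so with the length trend removed. Vangl2, Ror2, Celsr1, Scrib and Prickle1 were all nearer 0 after either correction. With the length trend removed, Vangl2 no longer had an unadjusted p under 0.05 (edgeR).

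**Figure D5:**
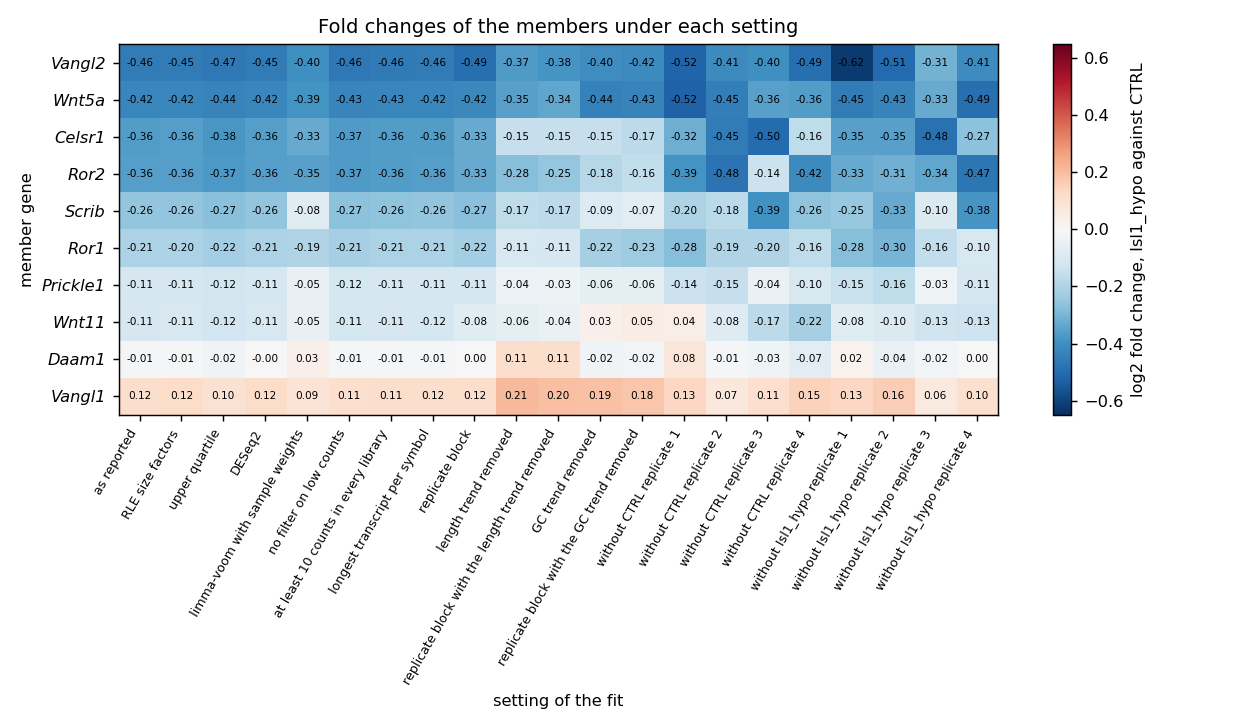
Log2 fold change (Isl1_hypo against CTRL) of each of the 10 genes, in rows, as reported and under each of 20 alternative settings, in columns, with the value printed in each cell. The rows of Wnt5a, at −0.52 to −0.33, and Vangl2, at −0.62 to −0.31, are negative throughout, while Wnt11 and Daam1 take both signs.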

How the data were processed

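PolyA RNA of single embryos was sequenced on BGISEQ-500. The authors aligned reads with STAR to mm9, counted exon reads per RefSeq transcript with HOMER on both strands together, deposited whole-number counts, and computed RPKM with edgeR. The deposited table also holds the authors' own DESeq2 comparison (mean signal, log2 fold change, its error, statistic, p-values), which was not used. Of 31507 transcripts, that with the highest mean count was kept per symbol (20701 symbols). The overlapping models named are from the GENCODE annotation of mm9, with overlap taken over whole gene spans, introns included.

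Counts were filtered with filterByExpr, scaled by TMM and compared by the edgeR quasi-likelihood test without covariates, with Benjamini-Hochberg adjustment over 13769 genes (R 4.3.3, edgeR 4.0.16, limma 3.58.1, DESeq2 1.42.0, Python 3.11.15, SciPy 1.17.1). The SE is the size of the log2 fold change over the square root of F, and intervals are at 95%. The fit was tested on simulated data. GC was known for 91.4% of tested genes, and GC and length trends were removed by loess with a span of 0.5. Nothing in the labels says that embryos came from separate litters, so p-values measure the spread between these embryos.

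Named were Isl1, the 10 genes, pathway genes with an unadjusted p under 0.05, the 3 nearest patterns to each such member, and markers. Other pathway genes were named for their role after their values were seen. The 10 genes and the lists were chosen with earlier results of these data known. The marker lists were heart muscle, outflow tract and right ventricle, cushion mesenchyme, neural crest, endothelium, epithelium, neurons, erythroid, macrophage and atrium. Settings compared were RLE and upper-quartile scaling, DESeq2, limma-voom with sample weights, no filter, at least 10 counts in each library, the longest transcript, the replicate number as a block, GC and length trends, and leaving out each library.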

Additional observations from a re-analysis of the deposited data

Results flagged for a closer look

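Of 36 groups of 4 libraries examined, 1 held a library far from the others, where about 1 in 20 groups is marked by chance. This was Dchs1, the Fat4-binding cadherin gene, at a log2 CPM of 4.39 in Isl1_hypo replicate 3, against 5.24 to 5.41 in the other Isl1_hypo libraries. Without this library the log2 fold change of Dchs1 was −0.60, with the remaining Isl1_hypo libraries still below all CTRL libraries, and its adjusted p was 0.0734 (edgeR).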

How the results depend on the processing

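Of 373 values recomputed under 20 alternatives, 337 were counted as unchanged. The ratios between genes had 11 alternatives, among them 1 added to both RPKM values and sign flips over pairs of equal replicate number. A fold change or ratio was unchanged if it kept its direction and its side of the threshold, which for the 10 genes means that it stayed without a call. Their median was unchanged if it moved by less than the replicate spread. Counts of genes were unchanged if they stayed within a set factor of the main count, a looser rule. None of the 10 genes had an adjusted p under 0.05 in any alternative. The 37 genes with an adjusted p under 0.05 over the whole table became 319 with DESeq2 and 134 with limma-voom, and 4 to 48 when single libraries were left out (8, 5 and 4 without CTRL replicates 1, 2 and 3, and 12 and 11 without Isl1_hypo replicates 2 and 4). One pathway gene, Dchs1, passed with DESeq2 and 1, the same gene, with limma-voom. The median log2 fold change of the 10 genes, −0.23, was −0.14 with limma-voom, −0.13 with the length trend removed, −0.12 with the GC trend removed, and −0.31 to −0.14 when single libraries were left out, the limits being without Isl1_hypo replicates 2 and 3. An unadjusted p under 0.05 was left for 1 of the 10 genes, Wnt5a, without Isl1_hypo replicate 3 and with the length trend removed, and Vangl2 also missed it without CTRL replicates 2 or 3 or Isl1_hypo replicate 4, where Ror2, Celsr1 and Ror2 respectively came under 0.05 in its place. Wnt11 reversed to 0.032 with the GC trend removed and to 0.044 without CTRL replicate 1, in a range of −0.22 to 0.044 over single libraries left out. Daam1 reversed to 0.034 with limma-voom, to 0.11 with the length trend removed, and to 0.077, 0.020 and 0.0039 without CTRL replicate 1, Isl1_hypo replicate 1 and Isl1_hypo replicate 4, in a range of −0.069 to 0.077. The difference in the log2 ratio of Ror2 to Ror1 reversed to 0.065 without CTRL replicate 3 and to 0.035 without Isl1_hypo replicate 2, in a range of −0.32 to 0.065. The cause of these changes was not tested.

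Deviations of same-numbered libraries from their group means correlated at 0.02, −0.02, 0.01 and 0.02. The highest correlations of the CTRL libraries with an Isl1_hypo library of another number were 0.06, 0.05, 0.04 and 0.02. Trends of single libraries with GC and length enter these correlations, so they cannot show whether the embryos were paired. With the replicate number as a block, 0 genes had an adjusted p under 0.05 (edgeR, 1582 at an unadjusted p under 0.05), and Isl1 had a log2 fold change of −2.29 with an adjusted p of 0.0722. The block with the length trend removed gave 4 genes, −2.27 for Isl1 (adjusted p 0.0699, edgeR), a median of −0.13 and 1 of the 10 genes at an unadjusted p under 0.05. The block with the GC trend removed gave 15 genes, −2.31 for Isl1 (adjusted p 0.0302, edgeR) and a median of −0.12. Under the block Daam1 reversed to 0.000949, and to 0.11 with the length trend removed as well, and Wnt11 reversed to 0.050 with the GC trend removed as well. With 4 embryos a group, the 95% interval of a log2 fold change among the 10 genes was as wide as −0.86 to 0.14 for Celsr1, the gene with the fewest reads per length.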
